A study of Homo sapiens with 10 samples.

Results

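Genes of glycolysis, the pentose phosphate pathway and the hypoxia response were compared between parental MCF10A cells and MCF10A cells in which the gene of histone variant H2A.X had been knocked out. The members were 54 genes listed by name, a list drawn up with earlier results of these data known, and 28 of them had a named probe set among the 14884 genes measured. The other 26, among them HIF1A, VHL, CA9, SLC2A1, PKM, ENO1, ALDOA and all members of the PFKFB and PDK families listed, were not analysed here. MCF10A is an established human breast epithelial cell line that grows without limit but forms no tumours. The data were 10 Affymetrix arrays, 5 of parental cells (H2A.X WT) and 5 of H2A.X knockout cells. Culture conditions were shared: the medium of parental and knockout cells contained horse serum, hydrocortisone, EGF, cholera toxin and insulin, and cells were harvested after 48 h. The labels do not say whether the knockout cells were 1 clone or whether the 5 samples of a group were separate cultures, so the spread behind each p-value is that between these samples and may be technical.

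Glycolysis splits glucose into pyruvate and yields ATP, and lactate dehydrogenase converts pyruvate to lactate so that the flow can go on without oxygen. The pentose phosphate pathway branches off after the hexokinase step. Its oxidative arm makes NADPH and ribose phosphate, and its non-oxidative arm, run by transketolase and transaldolase, returns sugars to glycolysis. When oxygen falls, prolyl hydroxylases of the EGLN family no longer mark the alpha subunits of hypoxia-inducible factor (HIF) for destruction, and HIF bound to its partner ARNT induces glucose transporters, glycolytic enzymes and other targets. The alpha subunits are controlled mainly at the protein level, which arrays do not measure.

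The median log2 signal of an array was 4.26 to 4.35. Arrays of the same group correlated across genes at 0.991 to 0.996, arrays of different groups at 0.975 to 0.979, and knockout replicate 1 was set off from replicates 2 to 5 of its group on the second principal component, which held 7.53% of the variance. Of 6 measured epithelial markers KRT5 and KRT14 rose and EPCAM and KRT18 fell, and the log2 of their summed signal was 11.51 to 11.69 in parental and 11.96 to 12.13 in knockout arrays. The number of the KRT18 probe set falls among those of chromosome 3, where all 20 nearest named ones belong, while the gene lies on chromosome 12, so that this call is as insecure as the value of PGAM1 below. KRT18 was the brightest of the 6 in parental cells (mean 10.65, against 9.72 in knockout cells), so the summed epithelial signal is insecure as well. KRT5, KRT14 and EPCAM had mean log2 signals of 9.57, 8.26 and 8.49 in parental cells and 10.35, 10.85 and 6.35 in knockout cells. All 4 measured adipocyte markers, with a log2 sum of 5.75 to 5.99 and 5.73 to 5.93, and 7 of 8 endothelial markers lay in both groups under 5.49, the median signal of all genes. Of 4 measured fibroblast markers DCN rose and DPT fell, and the log2 of the summed fibroblast signal was 6.26 to 6.48 in parental and 6.95 to 7.17 in knockout arrays. The log2 of the summed endothelial signal was 7.04 to 7.14 and 7.57 to 7.75, with a rise of KDR alone among its 8 genes, and that of 5 immune markers, of which CSF1R rose and CD14 and CD68 fell, was 8.78 to 8.93 and 8.64 to 8.84. The part of these markers in the results below was not tested. The targeted gene itself was not analysed here.

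Of the 28 measured members, 12 rose and 8 fell in the knockout cells, and 8 did not pass the test (limma, adjusted p under 0.05 with adjustment over all 14884 genes). Over all genes 34.3% passed, 15.3% upward and 19.0% downward, against 71.4% of the members. The share depended on signal: among the 7726 genes above the median signal 55.9% passed, and of the 25 members above it 19 did (76.0%). Here and below, a gene counts as above the median signal if its mean was so in the parental or the knockout group. A gene can thus enter through the group where it is higher, which favours genes that passed. The median difference of the members, knockout minus parental, was 0.13 on the log2 scale, and that of all genes was 0.00. In bulk RNA such a difference cannot tell fewer cells of a kind from less RNA per cell. In 18 members no knockout array overlapped the parental arrays, 12 of them higher and 6 lower, a separation seen in 28.2% of all genes. There were 9 members that passed with a log2 difference of at least 0.5 in size, which 12.7% of all genes did. They were HK1, GPI, PGD, TKT, CA12 and ADM, which were higher, and TXNIP, NDRG1 and EGLN1, which were lower. The shares of 28.2% and 12.7% include dim genes, whereas 25 of the 28 members were above the median signal, so they overstate the contrast.

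**Figure D1:**
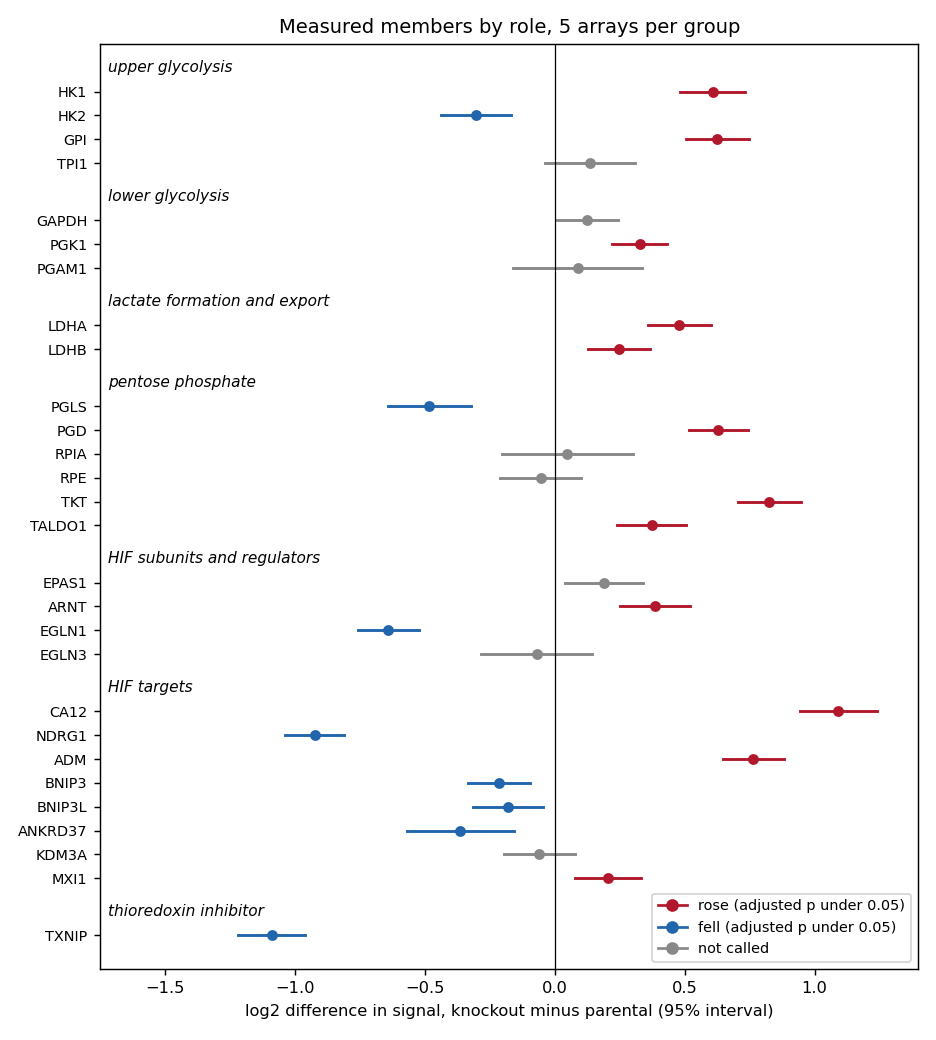
Log2 difference in signal, knockout minus parental, of each of the 28 measured members (points) with its 95% interval from limma (lines), grouped by role and coloured by the call. Most measured enzymes of glycolysis and the pentose phosphate pathway lie to the right of 0, while HIF targets lie on both sides, from -0.92 for NDRG1 to 1.09 for CA12.

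The enzymes that work on glucose first moved in opposite directions. HK1, the broadly expressed hexokinase that traps glucose in the cell by phosphorylating it, had log2 signals of 8.22, 8.24, 8.26, 8.16 and 8.09 in parental replicates 1 to 5 and of 8.68, 8.78, 8.82, 8.87 and 8.86 in knockout replicates 1 to 5 (probe set 16705577). All knockout arrays were higher than all parental arrays, by 0.61 ± 0.06 in the mean (SE, n = 5 each, adjusted p = 2.82e-06), a 1.52-fold rise. HK2, the inducible hexokinase and a classic HIF target, went the other way, with 7.73, 7.84, 7.68, 7.75 and 7.82 in parental arrays against 7.30, 7.47, 7.58, 7.48 and 7.46 in knockout arrays (probe set 16881838). Its difference was -0.30 ± 0.06 (adjusted p = 0.00161), and again the groups did not overlap.

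GPI, the isomerase that turns glucose 6-phosphate into fructose 6-phosphate, stood at 9.99, 10.02, 10.05, 10.06 and 9.95 in parental arrays and at 10.49, 10.67, 10.69, 10.69 and 10.65 in knockout arrays (probe set 16860709). It rose by 0.63 ± 0.06 (adjusted p = 1.69e-06), and knockout replicate 1 was the lowest knockout array yet lay well above every parental array. TPI1, which interconverts the triose phosphates, was at 5.76 ± 0.17 and 5.90 ± 0.08 (SD, n = 5 each) and did not pass (difference 0.14, adjusted p = 0.234).

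In lower glycolysis, PGK1, the kinase of the first ATP-yielding step, rose by 0.33 ± 0.05 (SE, adjusted p = 0.000150). Its log2 signals were 7.17, 7.25, 7.16, 7.17 and 7.17 in parental and 7.49, 7.48, 7.51, 7.58 and 7.49 in knockout arrays, with a clear gap between the groups. GAPDH, the dehydrogenase upstream of it and a common reference gene, was at 6.62 ± 0.06 and 6.75 ± 0.06 (SD), a difference of 0.13 that did not pass (adjusted p = 0.0933), although it did so once the arrays were quantile normalised (adjusted p = 0.0485) or dim genes were left out (adjusted p = 0.0370). The RefSeq table lists 65 pseudogenes named after GAPDH, whose near-identical copies the probe set may not tell apart. PGAM1, a phosphoglycerate mutase, was at 7.18 ± 0.14 and 7.27 ± 0.26 and did not pass (adjusted p = 0.625). Its probe set cannot be taken as secure: PGAM1 lies on chromosome 10, but the 20 named probe sets with the nearest numbers all belong to genes of chromosome 12, whereas those around 26 other members all lay on the member's own chromosome and those around TXNIP did in 18 of 20. PGAM1 has 13 pseudogenes named after it. The table also lists 6 for RPE, 4 for TPI1, of which 2 have a named probe set, and 2 each for PGK1 and PGD. HK2, RPIA, TALDO1, EGLN1, EGLN3 and KDM3A have 1 each.

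Both measured members that make lactate dehydrogenase, LDHA and LDHB, rose. LDHA, whose subunit favours the making of lactate and which HIF is known to induce, had log2 signals of 6.17, 6.23, 6.22, 6.33 and 6.20 in parental and 6.82, 6.65, 6.73, 6.64 and 6.72 in knockout arrays (probe set 16722603). LDHB, whose subunit is the one typical of the heart, had 9.11, 9.12, 9.20, 9.12 and 9.22 against 9.47, 9.44, 9.45, 9.31 and 9.33 (probe set 16762126). Groups did not overlap for either gene. The differences were 0.48 ± 0.06 (adjusted p = 1.61e-05) and 0.25 ± 0.06 (adjusted p = 0.00323). LDHA has 6 and LDHB 3 pseudogenes named after them.

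The glycolytic members comprised 24 genes, of which 9 were measured. Of these 5 rose, 1, HK2, fell and 3 did not pass, with a median difference of 0.25. The 66.7% that passed compare with 34.3% of all genes and 55.9% of genes above the median signal. None of the 9 was dim in both groups. No glucose transporter or lactate exporter of the list was among the 9.

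Ratios of related genes within each array are given as a description, with no test, since the pairs were chosen after the values were seen and opposite moves of HK1 and HK2 fix the separation of their ratio. The mean log2 ratio of HK1 to HK2 was 0.91 ± 0.06 higher in knockout arrays (SE, n = 5 each). For LDHA to LDHB it was 0.23 ± 0.05 higher, and the highest parental array, at 0.13 above the parental mean, came close to the lowest knockout array, also at 0.13. For the mitophagy receptor genes BNIP3 and BNIP3L the ratio changed by -0.04 ± 0.07, with groups that overlapped.

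**Figure D2:**
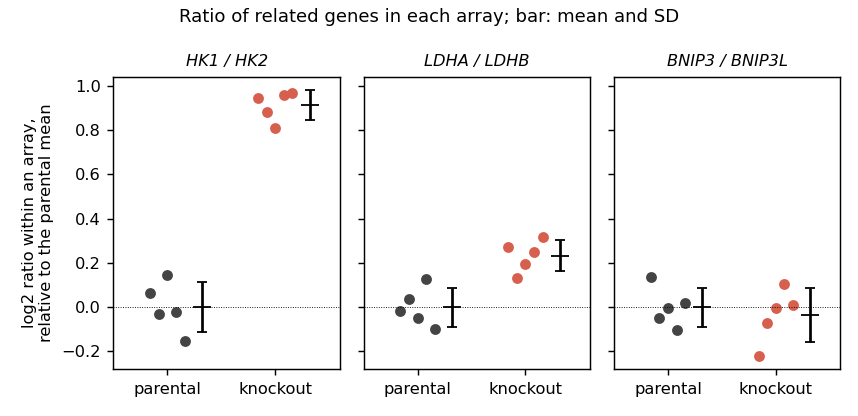
Log2 ratio of 2 related genes in each of the 10 arrays, set to 0 at the parental mean, with the mean and SD of each group beside the points. The HK1 to HK2 ratio lies between 0.81 and 0.97 in all 5 knockout arrays, the LDHA to LDHB groups nearly touch, and the BNIP3 to BNIP3L ratio overlaps between groups.

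All 6 pentose phosphate members were measured: 3 rose, 1 fell and 2 did not pass, with a median difference of 0.21. Thus 66.7% passed, against 34.3% of all genes and 55.9% of genes above the median signal. TKT, the transketolase that moves carbon units between sugar phosphates in the non-oxidative arm, showed the largest rise of the 6. Its log2 signals were 10.16, 10.13, 10.23, 10.23 and 10.17 in parental and 10.88, 10.999, 11.04, 11.10 and 11.04 in knockout arrays (probe set 16955064), a difference of 0.83 ± 0.06 (SE, adjusted p = 1.41e-07) or 1.77-fold. TALDO1, the transaldolase of the same arm, rose by 0.37 ± 0.06 (adjusted p = 0.000306), from 5.61 ± 0.05 to 5.98 ± 0.11 (SD), with no overlap.

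The oxidative arm was split. PGD, the dehydrogenase that makes the second NADPH of the arm, rose from 9.06, 9.07, 9.11, 9.13 and 8.97 in parental arrays to 9.65, 9.69, 9.75, 9.74 and 9.65 in knockout arrays (probe set 16658864), by 0.63 ± 0.05 (SE, adjusted p = 8.46e-07). PGLS, the lactonase of the step just before it, fell from 8.15, 8.03, 8.21, 8.07 and 8.04 to 7.40, 7.57, 7.74, 7.75 and 7.63 (probe set 16859554), a difference of -0.48 ± 0.07 (adjusted p = 0.000168). Every PGD value was higher and every PGLS value lower in the knockout arrays. The isomerase gene RPIA was at 6.37 ± 0.14 and 6.42 ± 0.26 and the epimerase gene RPE, dim in both groups, at 5.34 ± 0.08 and 5.28 ± 0.14 (SD), and neither passed (adjusted p = 0.803 and 0.634). Their 95% intervals ran from -0.20 to 0.30 and from -0.21 to 0.10. The RPIA difference took the opposite sign without parental replicate 5 or knockout replicate 3.

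**Figure D3:**
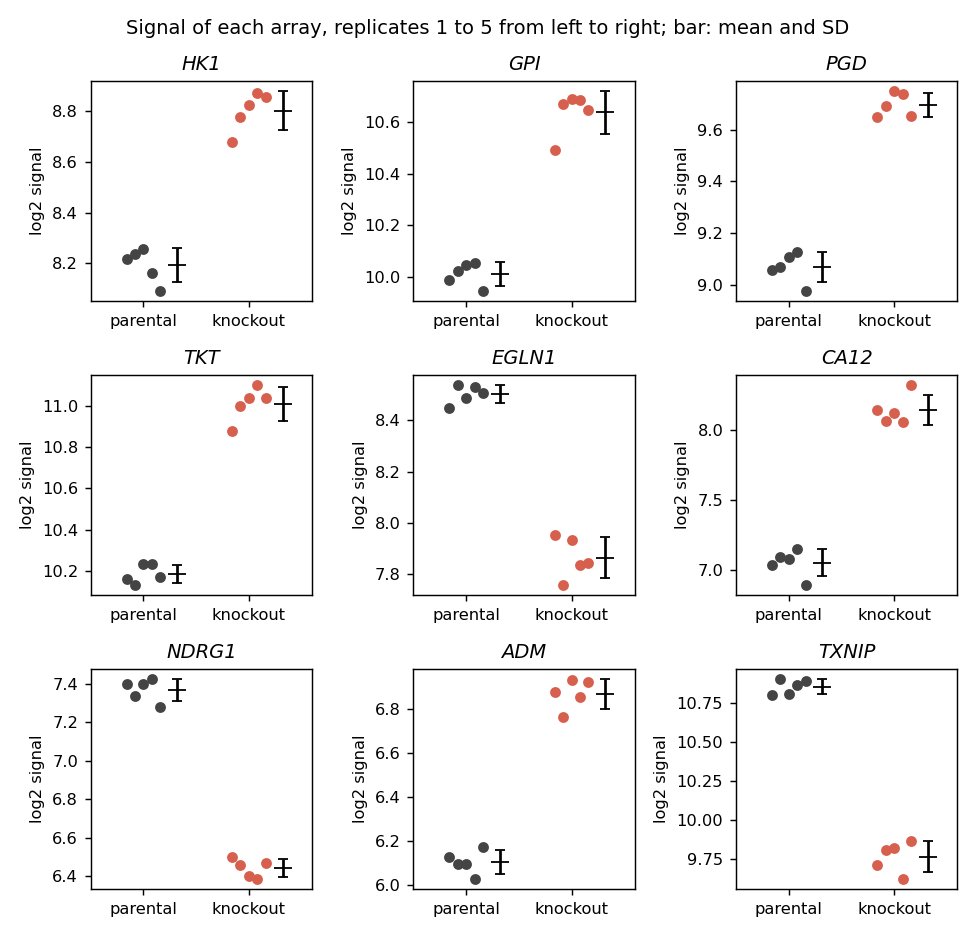
Log2 signal in each array (points, replicates 1 to 5 from left to right in each group) with the mean and SD of the group, for the 9 members that passed the test with a log2 difference of at least 0.5 in size. Each panel has its own vertical axis, and in none do the 5 knockout arrays overlap the 5 parental arrays.

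Of the HIF subunits and their regulators, 4 of 7 were measured, and 1 rose and 1 fell. This share of 50% lies between the 34.3% of all genes and the 55.9% of genes above the median signal. ARNT, the partner that HIF alpha subunits need to bind DNA, was at 8.30, 8.51, 8.47, 8.54 and 8.54 in parental and at 8.82, 8.89, 8.76, 8.89 and 8.92 in knockout arrays, and rose by 0.39 ± 0.06 (SE, adjusted p = 0.000270). EPAS1, which encodes HIF-2 alpha, had 9.42, 9.42, 9.47, 9.52 and 9.40 against 9.45, 9.56, 9.75, 9.61 and 9.79 (probe set 16879721). Knockout replicate 1 lay within the parental range, and the difference of 0.19 ± 0.07 did not pass (adjusted p = 0.0506). The difference did pass without that array (0.23, adjusted p = 0.0117), after quantile normalisation (adjusted p = 0.0209) and with dim genes left out (adjusted p = 0.0207). It also passed with a variance trend in intensity and robust variance estimates set together (adjusted p = 0.00979). It did not pass with arrays centred on their medians (adjusted p = 0.0598), over all probe sets (adjusted p = 0.112), with a replicate block (adjusted p = 0.0702) or without any of the other 9 arrays (adjusted p of 0.0541 to 0.118).

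EGLN1, the prolyl hydroxylase that does most of the marking of HIF-1 alpha in oxygen and is itself a HIF target, fell. Its signals were 8.45, 8.54, 8.49, 8.53 and 8.51 in parental and 7.95, 7.76, 7.93, 7.83 and 7.84 in knockout arrays (probe set 16700489). The difference was -0.64 ± 0.05 (adjusted p = 1.09e-06), a level 1.56-fold lower, without overlap. EGLN3, the hydroxylase that hypoxia is known to raise strongly, was at 3.46 ± 0.12 and 3.39 ± 0.21 (SD), under the array medians in both groups, and did not pass (adjusted p = 0.654). Its 95% interval ran from -0.28 to 0.14.

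Of 12 HIF targets listed, 8 were measured, and these did not share a direction: 3 rose, 4 fell and 1 did not pass, with a median of -0.12. The 87.5% that passed compare with 34.3% of all genes and 55.9% of genes above the median signal. CA12, a carbonic anhydrase of the cell surface that also responds to oestrogen receptor, showed the largest rise of all members, from 7.04, 7.10, 7.08, 7.15 and 6.89 to 8.14, 8.07, 8.13, 8.06 and 8.33 (probe set 16810341). This was 1.09 ± 0.07 (SE, adjusted p = 7.15e-08) or 2.13-fold. ADM, which encodes the vasodilator peptide adrenomedullin, had 6.13, 6.10, 6.10, 6.03 and 6.17 in parental against 6.87, 6.76, 6.93, 6.85 and 6.92 in knockout arrays (probe set 16721905), a rise of 0.76 ± 0.05 (adjusted p = 2.15e-07). For both genes the lowest knockout array was above the highest parental array.

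NDRG1, a growth and differentiation gene widely used as a hypoxia marker, fell from 7.40, 7.34, 7.40, 7.42 and 7.28 to 6.50, 6.46, 6.40, 6.39 and 6.47 (probe set 17081401). The difference was -0.92 ± 0.05 (adjusted p = 2.75e-08), 1.90-fold lower, and the groups did not overlap. The mitophagy receptor genes fell by less. BNIP3 was at 9.46 ± 0.04 and 9.25 ± 0.08 (SD) and changed by -0.22 ± 0.06 (SE, adjusted p = 0.00787) without overlap, and 46 pseudogenes are named after it. BNIP3L, at 9.98 ± 0.09 and 9.80 ± 0.08, changed by -0.18 ± 0.06 (adjusted p = 0.0392), with knockout replicate 1, at 9.91, inside the parental range of 9.85 to 10.09.

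That BNIP3L call was the least secure of the 20. It was lost in 7 of the 10 fits that left out an array, namely parental replicate 2, 3, 4 or 5 or knockout replicate 2, 4 or 5 (adjusted p of 0.0616, 0.0739, 0.0980, 0.0767, 0.0870, 0.0887 and 0.0754), and under quantile normalisation (adjusted p = 0.128). ANKRD37, a small ankyrin protein gene with HIF sites, fell by 0.36 ± 0.10 (adjusted p = 0.00914), from 5.14 ± 0.15 to 4.77 ± 0.18 (SD), both dim, with knockout replicate 4, at 4.95, just above parental replicate 4, at 4.94. MXI1, an antagonist of MYC, rose by 0.21 ± 0.06 (SE, adjusted p = 0.0138), and its other probe set gave 0.29. KDM3A, a histone demethylase gene induced by HIF, was at 6.47 ± 0.09 and 6.42 ± 0.09 (SD) and did not pass (adjusted p = 0.541).

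TXNIP, the thioredoxin-interacting protein, restrains glucose uptake, and its gene is switched on by glucose through the sugar-sensing factor MondoA (encoded by MLXIP) and its partner MLX. It fell further than any other measured member. Log2 signals were 10.80, 10.91, 10.81, 10.87 and 10.89 in parental and 9.71, 9.81, 9.82, 9.62 and 9.87 in knockout arrays (probe set 16669796), all knockout arrays lying below all parental ones. The difference was -1.09 ± 0.06 (SE, adjusted p = 2.09e-08), 2.13-fold lower, and the other TXNIP probe set gave -1.27. ARRDC4, the other arrestin gene known to answer to MondoA, fell from 8.78, 8.89, 8.70, 8.78 and 8.54 to 6.90, 7.07, 7.07, 7.23 and 6.91, a difference of -1.70 ± 0.08 (adjusted p = 7.05e-09). The factor genes moved the other way, MLX by 0.75 ± 0.06 (adjusted p = 4.09e-07) and MLXIP by 0.31 ± 0.06 (adjusted p = 0.00205). MLX lies on chromosome 17 in surroundings that were themselves higher: the 20 nearest measured genes had a median difference of 0.13, and 9 of them rose and 0 fell.

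The promoters of TXNIP and ARRDC4 are shown because these genes fell together, each as the 250 bases before the first start listed in RefSeq (GRCh38.p14), 5′ to 3′ on the gene's strand. TXNIP lies at chr1:145996580-145996829 on the minus strand, ARRDC4 at chr15:97960453-97960702 on the plus strand. Capitals mark CACGAG, the half-site of the glucose response element of TXNIP, and the E-box CACGTG, both searched on either strand.
TXNIP: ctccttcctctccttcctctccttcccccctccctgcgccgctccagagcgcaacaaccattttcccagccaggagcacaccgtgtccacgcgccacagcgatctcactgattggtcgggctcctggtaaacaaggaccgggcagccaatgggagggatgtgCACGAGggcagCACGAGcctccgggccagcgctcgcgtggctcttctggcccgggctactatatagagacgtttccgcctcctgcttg
ARRDC4: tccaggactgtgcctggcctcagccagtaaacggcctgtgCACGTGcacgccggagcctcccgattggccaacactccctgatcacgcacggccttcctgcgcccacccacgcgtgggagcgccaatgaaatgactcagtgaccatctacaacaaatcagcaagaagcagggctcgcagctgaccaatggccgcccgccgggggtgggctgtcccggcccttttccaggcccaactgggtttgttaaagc
The ARRDC4 window holds 1 CACGTG and no CACGAG. TXNIP has 2 starts listed, and the window of the start not shown, with 50 bases after it included, held 0 CACGAG. At the start shown, TXNIP holds 2 copies of CACGAG with 5 bases between them. Over all 35116 promoters of the table, taken as 250 bases before to 50 after the start, 6.78% held CACGAG, 7.26% held CACGTG and 2 held a pair of CACGAG spaced in this way. TXNIP is itself 1 of these 2, and the spacing counted was that of its promoter, so the count is no independent background.

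The core of the hypoxia response element is ACGTG or GCGTG, and promoters of 6 members, 3 that rose and 3 that fell, are shown because these genes are known HIF targets that moved in opposite directions. They are likewise 250 bases before the first RefSeq start, with every match on either strand in capitals, so that CACGT and CACGC mark the opposite strand. LDHA lies at chr11:18394313-18394562 (plus), ADM at chr11:10304823-10305072 (plus), CA12 at chr15:63381847-63382096 (minus), EGLN1 at chr1:231422288-231422537 (minus), HK2 at chr2:74833877-74834126 (plus) and BNIP3 at chr10:131981924-131982173 (minus).
LDHA, which rose: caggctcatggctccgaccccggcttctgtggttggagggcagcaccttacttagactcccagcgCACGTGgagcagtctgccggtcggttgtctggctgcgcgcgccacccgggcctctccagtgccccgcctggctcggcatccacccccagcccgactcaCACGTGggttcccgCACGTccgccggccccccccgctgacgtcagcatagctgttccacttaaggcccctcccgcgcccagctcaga
ADM, which rose: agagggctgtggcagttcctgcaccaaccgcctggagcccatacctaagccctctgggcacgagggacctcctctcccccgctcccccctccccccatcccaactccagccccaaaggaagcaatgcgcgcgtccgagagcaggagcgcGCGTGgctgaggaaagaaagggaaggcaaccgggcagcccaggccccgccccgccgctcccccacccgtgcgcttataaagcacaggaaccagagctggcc
CA12, which rose: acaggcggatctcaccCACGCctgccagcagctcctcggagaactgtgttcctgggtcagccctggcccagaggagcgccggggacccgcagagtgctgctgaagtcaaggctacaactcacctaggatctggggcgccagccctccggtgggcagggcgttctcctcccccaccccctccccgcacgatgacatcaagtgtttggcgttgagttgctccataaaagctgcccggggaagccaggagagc
EGLN1, which fell: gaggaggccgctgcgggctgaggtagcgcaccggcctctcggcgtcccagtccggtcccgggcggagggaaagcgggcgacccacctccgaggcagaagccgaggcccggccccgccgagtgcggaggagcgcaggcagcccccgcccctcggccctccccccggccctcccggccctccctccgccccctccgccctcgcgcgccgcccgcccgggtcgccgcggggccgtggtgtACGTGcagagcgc
HK2, which fell: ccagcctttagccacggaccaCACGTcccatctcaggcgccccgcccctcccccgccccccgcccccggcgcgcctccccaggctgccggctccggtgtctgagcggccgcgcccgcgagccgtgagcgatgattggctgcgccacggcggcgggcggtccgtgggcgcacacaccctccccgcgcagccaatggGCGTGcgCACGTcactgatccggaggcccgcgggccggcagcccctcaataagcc
BNIP3, which fell: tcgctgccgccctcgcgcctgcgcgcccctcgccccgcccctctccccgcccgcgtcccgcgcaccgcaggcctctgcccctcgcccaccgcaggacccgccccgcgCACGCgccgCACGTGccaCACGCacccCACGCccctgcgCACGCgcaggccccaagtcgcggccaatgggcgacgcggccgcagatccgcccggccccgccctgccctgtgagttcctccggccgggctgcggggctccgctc
BNIP3 had 6 matches, LDHA 5, HK2 3 and the other windows 1 each, where a CACGTG counts once on each strand. These counts depend on the start taken, since LDHA and HK2 have 2 starts listed each. With 50 bases after the start included, the start not shown held 0 ACGTG and 1 GCGTG in LDHA. In HK2 it held 4 ACGTG and 2 GCGTG. RefSeq promoters were matched for 26 of the 28 measured members, but not for NDRG1 and BNIP3L, which both fell. In windows of 250 bases before to 50 after a start, a core was found in 19 of these 26 genes, in 9 of the 12 that rose and in 5 of the 6 that fell. Among all genes with a promoter it was found in 14318 of 27305. By promoter, 64.1% of the members' 39 starts held a core against 48.4% of all promoters, with 87.5% of the 8 starts of genes that fell and 57.1% of the 21 starts of genes that rose. Genes with several starts, such as HK1 and HK2, weigh more in these shares by promoter. A match is a description of the letters and no sign of binding.

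Genes of the same pathways that were not members were taken from lists. Of 12 other genes of glycolysis and glucose entry 3 rose and 1 fell, which is 33.3% against 34.3% of all genes and so no more than the background, with a median difference of 0.09. LDHC, the testis form of lactate dehydrogenase, was dim and did not pass (difference 0.09, adjusted p = 0.298). The glycerol phosphate dehydrogenase genes GPD1L (0.65 ± 0.07, SE) and GPD2 (0.42 ± 0.06), which link glycolysis to glycerol and to the respiratory chain, rose, as did LDHD (0.29), a D-lactate dehydrogenase, while TIGAR (-0.28), a phosphatase that directs sugar to the pentose phosphate pathway, fell. The TIGAR call (adjusted p = 0.0363) was lost without parental replicate 2, 4 or 5 or knockout replicate 1, 2 or 5 (adjusted p of 0.0709, 0.0862, 0.0621, 0.0831, 0.0560 and 0.0876). Of 7 other pentose phosphate and NADPH genes PGM2 (0.71 ± 0.06), a mutase of pentose phosphates, and PRPS2 (0.63 ± 0.07), which uses ribose phosphate for nucleotide synthesis, rose. H6PD (-0.42 ± 0.09), the enzyme of the oxidative arm within the endoplasmic reticulum, fell, and the median was 0.06. The 42.9% of this list that passed lie between the 34.3% of all genes and the 55.9% of genes above the median signal.

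Of 4 glycogen genes 2 rose and 2 fell, so that all passed, where 34.3% of all genes and 55.9% of genes above the median signal did. Glycogen synthase GYS1 (0.74 ± 0.08) and UGP2 (0.50 ± 0.07), which makes its substrate UDP-glucose, were higher, and the primer protein gene GYG1 (-0.29 ± 0.07) and PGM1 (-0.19 ± 0.05) were lower, PGM1 not so after quantile normalisation (adjusted p = 0.0597). The genes that bring pyruvate into the mitochondrion were divided as well, 4 up and 3 down of 9, with a median of 0.06. These are 77.8%, against the same 34.3% and 55.9%. DLAT (0.54 ± 0.05), a core subunit of pyruvate dehydrogenase, and PC (0.30 ± 0.09), pyruvate carboxylase, rose, and the activating phosphatase gene PDP1 (-0.44 ± 0.07), dim in both groups, and the pyruvate carrier gene MPC2 (-0.38 ± 0.06) fell. DLAT lies on chromosome 11 where the 20 nearest measured genes had a median difference of 0.11, and 7 of them rose and 0 fell.

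Among 8 further HIF regulators and partners 0 rose and 5 fell in the limma fit, and at an unadjusted p under 0.05 the counts were again 0 and 5, with a median of -0.31. Over all genes, dim ones included, 15.3% rose and 19.0% fell. The 62.5% of the list that passed is near the 55.9% of genes above the median signal. The coactivator gene EP300 (0.16 ± 0.08) narrowly missed an upward count, at an unadjusted p of 0.0511 in the limma fit. BMAL1, the clock factor related to ARNT (-1.37 ± 0.07), the coactivator gene CREBBP (-0.64 ± 0.06), and SIAH1 (-0.61 ± 0.06) and SIAH2 (-0.40 ± 0.06), ubiquitin ligases that mark EGLN proteins, fell. Of 27 further HIF targets, GYS1 again among them, 7 were called up and 8 down, and their median was -0.02. These 55.6% compare with 34.3% of all genes and 55.9% of genes above the median signal, so the share is near that background. VEGFA (-2.08 ± 0.08), the vascular growth factor, STC2 (-2.07 ± 0.06) and VLDLR (-1.55 ± 0.07), dim in both groups, were lower, the first pair also known targets of the stress factor ATF4, and the collagen crosslinking gene LOX (1.01 ± 0.07) was higher. The MondoA and MYC network gave 5 higher and 4 lower of 12, median 0.14. Here 75% passed, against 34.3% of all genes and 55.9% of genes above the median signal. Besides ARRDC4 and MLX, MXD1 (-1.70 ± 0.06), which opposes MYC, fell and MYC (0.77 ± 0.06), known to raise glycolytic genes, rose.

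**Figure D4:**
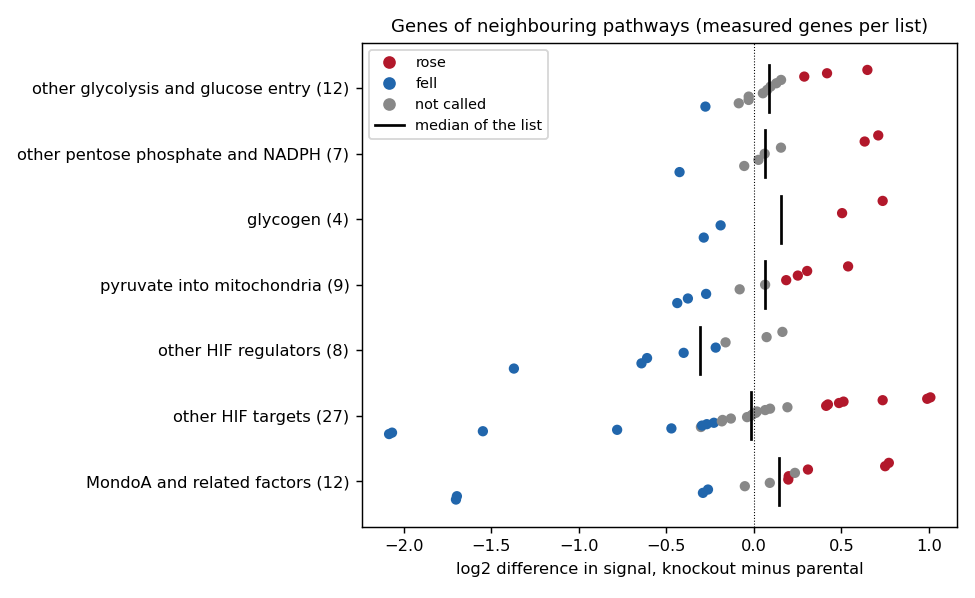
Log2 difference in signal, knockout minus parental, of measured genes that belong to neighbouring pathways (points, coloured by the call), with the number of measured genes in parentheses and the median of each list as a black bar. Lists of HIF targets and of the MondoA and MYC network hold genes far out in both directions. The 5 other HIF regulators that passed lie to the left of 0, where 19.0% of all genes, dim ones included, passed. In either direction 62.5% of that list passed, near the 55.9% of genes above the median signal.

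Genes next to the members on the chromosomes were set beside them. For the 20 nearest measured genes the median difference lay between -0.10 (around PGD) and 0.14 (around BNIP3L and TALDO1). TALDO1, near the tip of chromosome 11, had 6 neighbours that rose and 0 that fell, whereas LDHA and ADM on the same chromosome had neighbour medians of -0.02 and 0.02. Around TXNIP and CA12 the neighbour medians were -0.01 and 0.01, against differences of -1.09 and 1.09 in the genes themselves.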

How the data were processed

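The deposited values were log2 signals per probe set, 1 column for each of 10 arrays, as the authors had summarised them. The tools named in the submitters' processing notes were Partek 6.6 and Affymetrix Expression Console. How probes were summarised, in which order the tools ran and what was filtered is not given in the sources. The scale was read from the values, which ran from 1.13 to 13.87. For arrays, their number limits the precision.

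Of 53617 probe sets, 16098 had 1 gene symbol in the platform annotation, 0 had several and 37519 had none. Symbols were updated by Entrez identifier through the RefSeq gene table of GRCh38.p14. Each of 14884 genes was represented by its brightest probe set on average. Knockout minus parental was tested in R 4.3.3 with limma 3.58.1 (lmFit, eBayes), with no covariate and no filter, and Benjamini-Hochberg adjustment over all genes. All tests were two-sided. The fit was checked on simulated arrays holding known changes. Ratios of related genes and plots used pandas 2.3.3, numpy 2.4.6 and matplotlib 3.10.9 in Python 3.11.15.

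The members and lists were chosen with earlier results of these data known. Values of every array are given for members that passed with a log2 difference of at least 0.5, and for others that carry a group. Of the other genes, up to 4 per list that passed with the largest differences are named. LDHC, EP300, MLXIP and the cell type markers are named besides, chosen after their values were seen. The gene pairs were also chosen after seeing the values. Alternatives were quantile normalisation, centring, a filter on genes dim in both groups, and an intensity trend together with robust variance estimates. Further alternatives were the mean of probe sets, adjustment over all probe sets, a replicate block and leaving out each array.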

Additional observations from a re-analysis of the deposited data

Results flagged for a closer look

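In 55 genes, 110 groups of 5 arrays were examined for an array far from the other 4, and 10 were found, where chance gives about 1 in 20 groups. Among members, GPI was at 10.49 in knockout replicate 1 against 10.65 to 10.69 in the others. PGK1 was at 7.25 in parental replicate 2 against 7.16 to 7.17, and at 7.58 in knockout replicate 4 against 7.48 to 7.51. TALDO1 was at 6.17 in knockout replicate 2 against 5.92 to 5.98. None of these arrays reached the range of the opposite group. Among other genes, knockout replicate 1 was low in PRPS2, at 8.96 against 9.21 to 9.30, and in H6PD, at 5.69 against 6.02 to 6.13. PGM2 was at 8.57 in parental replicate 1 against 8.37 to 8.42, and DLAT at 9.09 in knockout replicate 5 against 9.18 to 9.21. In parental replicate 5, PDP1 was at 5.49 against 5.23 to 5.29 and MPC2 at 9.18 against 9.28 to 9.29.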

How the results depend on the processing

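Members called higher numbered 12 to 14 and members called lower 7 or 8 across the alternatives, which left 25 members to test without the dimmest genes and 28 otherwise. With an array left out they numbered 12 to 13 and 7 to 8, and without knockout replicate 1, which stood apart, 13 and 8. All genes called ranged from 4299, with adjustment over all probe sets, to 5250, with an intensity trend and robust variance estimates. Apart from BNIP3L, all 19 other called members kept their direction and passed under every alternative in which they were tested. BNIP3L did not pass with adjustment over all probe sets (adjusted p = 0.0916). EPAS1 also passed, barely, with the mean of probe sets. Leaving out 1 array, RPIA ranged from -0.028 to 0.142 and the BNIP3 to BNIP3L ratio from -0.071 to 0.011, and both changed sign: RPIA was at -0.004 without parental replicate 5 and -0.028 without knockout replicate 3, and the ratio at 0.011 without knockout replicate 1. Of other genes, TIGAR did not pass in 7 alternatives and PGM1 in 1. Same-numbered arrays correlated in their deviations at -0.01 to 0.20, so the numbers were not taken to pair the samples. A replicate block gave 4972 genes called and BNIP3L an adjusted p of 0.0929.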
